A study of Homo sapiens with 4 samples.

Results

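The genes described here are 9 ETS transcription factors, SPDEF, ERG, ETV1, ETV4, ETV5, ELF3, EHF, ELK4 and ETS2, of 60483 gene identifiers counted in each library. They were taken by symbol from a list of ETS family genes, matched through GENCODE 29, and the rule used no measured value. The genes were, however, chosen with earlier results of these data known. RNA was sequenced from C4-2, an established human prostate cancer cell line derived from LNCaP. The control group (labelled C4-2-CON) had 2 libraries and the enzalutamide-resistant group (labelled C4-2-ENZ) had 2. Enzalutamide is an antiandrogen, a class of drug given for prostate cancer. All cells were of the one line, within the same range of passages, and were grown with or without the drug for 1 month. The stated medium was RPMI with serum, and the labels also name FGF-2, a growth factor that activates ERK, without saying which cells received it. They do not say whether the controls were given vehicle, or whether the resistant cells were a clone or a pool. Resistance and the presence of the drug cannot be told apart. Whether the replicates were grown as separate cultures is not stated, and the p-values then reflect only how far these libraries differ, which may be technical.

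ETS factors share a DNA-binding domain, the ETS domain, that reads a short core of GGA followed by A or T. Some members activate transcription and others repress it, and many are switched on by phosphorylation through the ERK kinases. In prostate cancer the family is known for gene fusions that put ERG, ETV1, ETV4 or ETV5 under the control of androgen-driven genes, most often TMPRSS2. LNCaP cells, the parent of C4-2, are known for an ETV1 gene moved into the MIPOL1 region beside FOXA1, and for chimeric transcripts that join SLC45A3 to ELK4. SPDEF, EHF and ELF3 are epithelial members, found in the luminal cells of glands.

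ETS genes can themselves carry ETS sites, so the stretches before a start site of 4 of the members called higher are shown. They come from the RefSeq promoter table (GRCh38.p14). Each is read 5′ to 3′ on the gene's own strand, ends at the base before the start of transcription or of the first annotated exon, and holds no exon annotated in GENCODE 29. The EHF stretch lies inside the gene as GENCODE 29 draws it, since that annotation has a start further upstream. Capitals mark the GGAA form of the ETS core, or TTCC where it lies on the other strand. The GGAT form was neither marked nor counted, though some stretches hold it.
ELK4, chr1:205632012-205632261, minus strand: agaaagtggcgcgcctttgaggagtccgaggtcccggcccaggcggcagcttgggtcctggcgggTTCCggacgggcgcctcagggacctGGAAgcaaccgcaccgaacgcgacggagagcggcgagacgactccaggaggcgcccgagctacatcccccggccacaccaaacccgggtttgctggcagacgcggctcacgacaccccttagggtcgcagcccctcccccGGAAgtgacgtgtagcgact
SPDEF, chr6:34556334-34556579, minus strand: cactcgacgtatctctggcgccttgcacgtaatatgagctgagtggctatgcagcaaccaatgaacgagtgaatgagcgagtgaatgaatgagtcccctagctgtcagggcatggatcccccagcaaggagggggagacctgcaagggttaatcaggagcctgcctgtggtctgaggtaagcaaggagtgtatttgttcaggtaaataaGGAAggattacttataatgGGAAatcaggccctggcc
EHF, first of its start sites in the table, chr11:34624007-34624256, plus strand: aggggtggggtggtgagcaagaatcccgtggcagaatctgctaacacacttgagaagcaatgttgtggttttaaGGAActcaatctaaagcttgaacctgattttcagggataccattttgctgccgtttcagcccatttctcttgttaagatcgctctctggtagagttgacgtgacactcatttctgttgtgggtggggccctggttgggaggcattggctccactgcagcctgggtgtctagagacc
ETS2, first of its start sites in the table, chr21:38804933-38805182, plus strand: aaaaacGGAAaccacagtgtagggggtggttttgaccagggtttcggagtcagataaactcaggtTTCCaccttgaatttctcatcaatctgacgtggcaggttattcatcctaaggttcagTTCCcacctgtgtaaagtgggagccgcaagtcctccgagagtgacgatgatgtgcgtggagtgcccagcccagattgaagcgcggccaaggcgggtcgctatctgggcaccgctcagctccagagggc
The ELK4 stretch carries 3 GGAA cores, and 1 of them lies in the longer ETS site CCGGAAGT, which begins 22 bases before the start. SPDEF has 2 GGAA cores, EHF has 1 and ETS2 has 3, and none of these 3 stretches holds the longer site. The table holds 7 of the 9 members, in 17 windows of 300 bases that run 50 bases past the start. GGAA on either strand was in 94.1% of those 17 windows and in 95.4% of all 34943 windows in the table. CCGGAAGT on either strand was in 1 of the 17 windows, the one before ELK4, and in 4.1% of all windows. A match is a string of letters and not a measured site. The table has no entry for ETV4 or ETV5.

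Gene counts per library ranged from 25589724 to 29866008 in control cells and from 39047453 to 45033885 in resistant cells. Reads that were not aligned made up 35.6% ± 1.98 (SD, n = 2) of records in control cells and 20.5% ± 0.242 (SD, n = 2) in resistant cells, so sequencing yield moved with the group and its part in the results below was not tested. Luminal epithelial markers were present in every library, among them the keratins KRT8, at 90.3 to 94.6 CPM in control and 161.4 to 164.0 CPM in resistant cells, and KRT18, at 238.5 to 244.8 and 324.0 to 329.1 CPM. CPM is the usual count per 1000000 gene-mapped reads, here with TMM-scaled library sizes. The adhesion gene EPCAM was at 90.8 to 96.6 CPM over the 4 libraries, and KLK3, which encodes prostate-specific antigen, was at 662.9 and 691.6 CPM in control and 487.4 and 477.3 CPM in resistant cells. Summed leukocyte markers reached at most 2.73 CPM, endothelial markers 5.75 CPM, fibroblast markers 11.4 CPM and neural stem markers 5.42 CPM. CD3E of the leukocyte list and COL1A2 of the fibroblast list had no count in any library. In bulk RNA, more cells with a transcript and more transcript per cell cannot be told apart.

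ETS genes of the group were higher in resistant cells wherever they could be tested. Of the 9, 7 had enough counts for a test, all 7 were called higher and 0 were called lower (edgeR quasi-likelihood test, Benjamini-Hochberg adjusted p under 0.05 over 20325 genes). ERG and ETV1 were too low to test, and the 7 others cleared the count filter in both groups. The background was wide: 33% of all genes tested were called higher and 31.7% lower, and among the protein-coding genes tested 42.3% were called higher. The median log2 fold change was 0.72 over the 7 and -0.02 over all genes tested. Both resistant libraries lay above both control libraries for each of the 7, as they did for 40.4% of all genes tested.

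How many were called depended on the method. With total counts as library sizes, which shifted the median log2 fold change over all genes by 0.19, 7 were called higher against a background of 42.4%. With offsets for transcript length and GC content 6 were called higher against 29.3%, and with the DESeq2 Wald test 5 against 27.4%. ETV4 was lost in both of these and ETV5 in the DESeq2 test. All 7 log2 fold changes stayed above 0 in every alternative that gave a value.

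**Figure D1:**
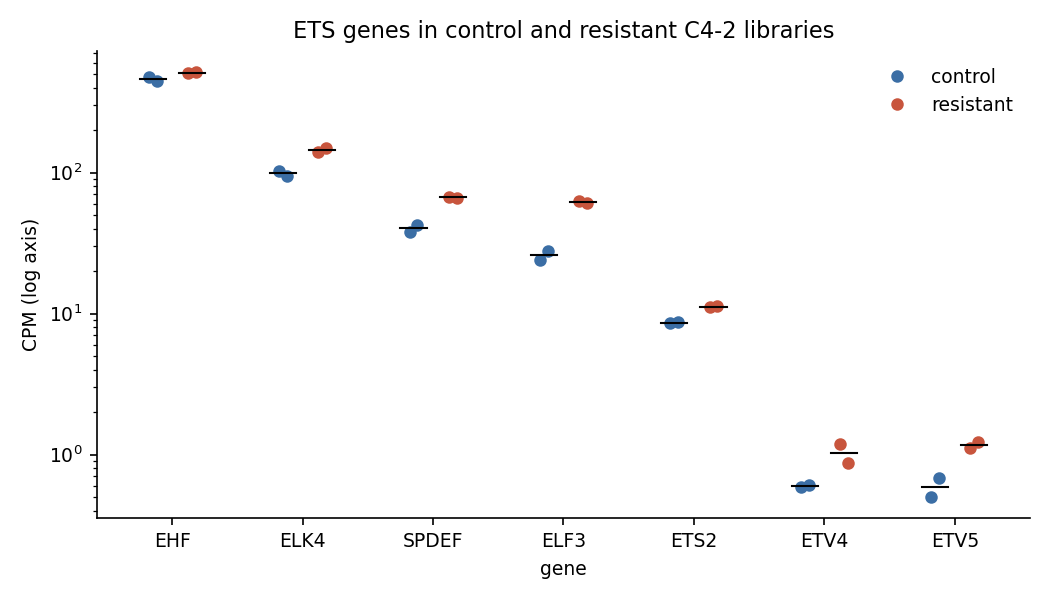
Level of the 7 members that could be tested (CPM, log axis), with 1 point per library in control (blue) and resistant (red) cells and a black line at each mean of 2. The resistant points lie above the control points for all 7, least for EHF (460.8 to 510.9 CPM) and most for ELF3 (26.0 to 62.0 CPM).

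EHF (ENSG00000135373, chr11:34621093-34661057, plus strand) is an epithelial ETS factor of the ESE group, and it was the most abundant member per kilobase of exons. Its level was 472.6 and 449.0 CPM in control replicates 1 and 2, and 505.2 and 516.7 CPM in resistant replicates 1 and 2. All 4 values lay close together, and the resistant pair stood just above the control pair. The mean went from 460.8 ± 16.7 to 510.9 ± 8.16 CPM (SD, n = 2 each), 1.11-fold. The log2 fold change of EHF was 0.34 with total counts as library sizes and 0.10 with a filter of 1 CPM in 2 libraries. In the main fit this small rise had a log2 fold change of 0.15 (with SE 0.037, adjusted p = 0.004 in edgeR). Without resistant replicate 2 it was 0.14 and no longer passed, with an adjusted p of 0.0775.

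ELF3 (ENSG00000163435, chr1:202007945-202017188, plus strand), another ESE factor that takes part in epithelial differentiation, rose most among the members. It was at 24.1 and 27.8 CPM in the control libraries and at 63.0 and 61.0 CPM in the resistant libraries. The groups were far apart, with no resistant value near the control range. ELF3 went from 26.0 ± 2.65 to 62.0 ± 1.38 CPM (SD, n = 2 each), a 2.38-fold rise (log2 fold change 1.25 with SE 0.063, adjusted p = 8.46e-09 in edgeR). With length and GC offsets the log2 fold change was 0.91 (adjusted p = 6.2e-10). Its place among all genes tested was the 94.9th percentile of log2 fold change. An RNA of the opposite strand, ELF3-AS1, shares 664 exonic bases with ELF3 and also rose, from 5.45 and 4.46 to 7.57 and 6.97 CPM (log2 fold change 0.56 with SE 0.117, adjusted p = 0.00119 in edgeR). No source used here gives the strand setting of the counting, so reads of the shared bases cannot be told apart.

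SPDEF (ENSG00000124664, chr6:34537802-34556333, minus strand) is a prostate-derived factor of luminal and secretory cells. Its control libraries gave 37.9 and 42.7 CPM and its resistant libraries 67.3 and 65.9 CPM. The pairs did not overlap, and the resistant pair was the tighter one. The mean rose 1.65-fold, from 40.3 ± 3.4 to 66.6 ± 0.983 CPM (SD, n = 2 each), a log2 fold change of 0.72 (with SE 0.0546, adjusted p = 2.88e-07 in edgeR). It was 0.54 with length and GC offsets (adjusted p = 6.48e-09).

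ELK4 (ENSG00000158711, chr1:205597556-205631962, minus strand) belongs to the ternary complex factors, which bind DNA with the serum response factor SRF and answer to ERK. It was at 103.2 and 95.3 CPM in control cells and 140.1 and 149.6 CPM in resistant cells, with a clear gap between the pairs. ELK4 rose 1.46-fold, from 99.3 ± 5.64 to 144.9 ± 6.7 CPM (SD, n = 2 each; log2 fold change 0.55 with SE 0.0512, adjusted p = 1.86e-06 in edgeR). SLC45A3, its neighbour 25.9 kb away on chromosome 1 and its partner in known chimeric transcripts, was at 16.9 and 16.9 CPM in control and 20.5 and 18.8 CPM in resistant cells. The SLC45A3 rise was small (log2 fold change 0.22 with SE 0.0666, adjusted p = 0.0123 in edgeR) and did not pass with length and GC offsets (0.03, adjusted p = 0.742). Counts per gene do not tell chimeric transcripts from others. MFSD4A, on the other strand, shares 422 exonic bases with ELK4. It also rose, from 11.7 and 12.0 to 14.1 and 13.1 CPM (log2 fold change 0.20 with SE 0.0714, adjusted p = 0.0273 in edgeR). The part of MFSD4A reads in the ELK4 counts was not tested.

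ETS2 (ENSG00000157557, chr21:38805307-38824955, plus strand) is a founding family member that is phosphorylated by ERK. Its control values were 8.6 and 8.66 CPM and its resistant values 11.1 and 11.2 CPM, so spread within each pair was small beside the step between them. The 1.29-fold rise, from 8.63 ± 0.0424 to 11.2 ± 0.133 CPM (SD, n = 2 each), had a log2 fold change of 0.37 (with SE 0.0752, adjusted p = 0.00107 in edgeR). ETS2 was also called with DESeq2 (adjusted p = 0.0222).

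**Figure D2:**
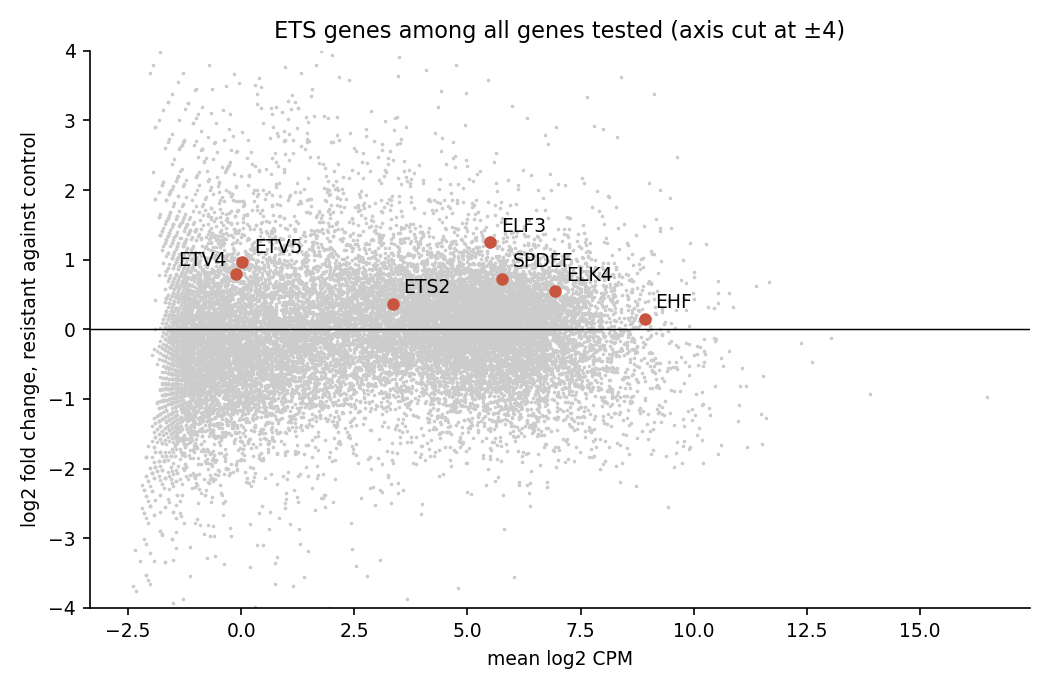
Log2 fold change, resistant against control, of all 20325 genes tested against mean log2 CPM, with the 7 tested members in red and all others in grey. The 7 tested members all lie above 0, from 0.15 for EHF at the right to 1.25 for ELF3, and 88 genes lie outside the plotted range of 4 in either direction.

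ETV4, ETV5 and ETV1 form the PEA3 group, which carries much of the invasive output of ERK signalling and whose genes are moved by fusions in some prostate cancers. ETV4 (ENSG00000175832, chr17:43527844-43579620, minus strand) had 14 and 17 counts in control and 57 and 36 counts in resistant cells. Those counts were 0.587 and 0.606 CPM against 1.18 and 0.869 CPM, near the low end of what could be tested. The log2 fold change was 0.79 (SE 0.277, adjusted p = 0.0259 in edgeR). That call was lost without resistant replicate 1 (0.54, adjusted p = 0.2), without control replicate 2 (adjusted p = 0.0535), with length and GC offsets (adjusted p = 0.0945) and with DESeq2 (adjusted p = 0.193). DHX8, on the opposite strand, shares 68 exonic bases with ETV4 and rose from 51.9 and 55.5 to 85.8 and 88.4 CPM (log2 fold change 0.70, adjusted p = 1.05e-07 in edgeR). The part of DHX8 reads in the ETV4 counts was not tested.

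ETV5 (ENSG00000244405, chr3:186046308-186110318, minus strand) had 12 and 19 counts in control and 54 and 51 counts in resistant cells. That was 0.503 and 0.677 CPM against 1.12 and 1.23 CPM, with no overlap. Its log2 fold change was 0.97 (SE 0.255, adjusted p = 0.00562 in edgeR), and it also passed with length and GC offsets (0.79, adjusted p = 0.0174) but not with DESeq2 (adjusted p = 0.079).

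ETV1 (ENSG00000006468, chr7:13891228-13991425, minus strand), the member known to be rearranged in the parent line, had almost no reads. No other gene of GENCODE 29 shares exonic bases with it. It had 0 and 1 counts in control and 2 and 2 counts in resistant cells. Over the 2 libraries of a group this was 0.0193 CPM in control and 0.0446 CPM in resistant cells, and their ratio of 2.32 had a 95% exact counting interval of 0.229 to 114. No difference was detectable at this depth. LNCaP is known for abundant ETV1 RNA, which these libraries did not show. Neither the identity of the line nor the way ETV1 reads were counted was tested. Per kilobase it was below every other member except ERG in all 4 libraries. Intervals here cover counting error only.

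ERG (ENSG00000157554, chr21:38380027-38661780, minus strand), the usual partner of TMPRSS2 in fusions, had 0 counts in both control libraries, 0 in resistant replicate 1 and 1 in resistant replicate 2. A count of 0 over both control libraries allows up to 0.0578 CPM (3 counts), and the single resistant count was 0.0112 CPM. ERG lies 143.5 kb from ETS2 on chromosome 21, so of these neighbours one was expressed in every library and the other was at or near 0. TMPRSS2, the androgen-driven protease gene, was at 100.7 and 106.4 CPM in control and 206.2 and 205.4 CPM in resistant cells, a 1.99-fold rise (log2 fold change 0.99 with SE 0.0425, adjusted p = 2.21e-09 in edgeR).

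Levels of different genes were compared as CPM per kilobase of exonic sequence. EHF was first at 105.1 ± 3.8 and 116.5 ± 1.86 CPM per kb (SD, n = 2 each, control and resistant), and SPDEF second at 21.1 ± 1.78 and 34.8 ± 0.514. ELK4 followed at 8.17 ± 0.465 and 11.9 ± 0.551, and ELF3 at 3.61 ± 0.369 and 8.62 ± 0.191. ETS2 was at 1.88 ± 0.00923 and 2.43 ± 0.029 CPM per kb. ETV4, at 0.165 ± 0.00363 and 0.284 ± 0.0615, and ETV5, at 0.102 ± 0.0212 and 0.203 ± 0.0135, came next, with ETV1 and ERG last. From EHF down to ETV5, the libraries of neighbouring members did not overlap in either group, while those of ETV1 and ERG lay within 2 counts of each other. Among protein-coding genes EHF stood at the 98.3rd percentile in control and the 99.1st in resistant cells, SPDEF went from the 89.6th to the 94.6th, and ELF3 from the 60.8th to the 75.3rd.

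The 28 ETS genes together summed to 199.9 and 194.3 CPM per kb in control and 245.6 and 247.3 CPM per kb in resistant cells. Members made up 70.7% to 71.3% of that sum in every library. Within it EHF went from 53.3% ± 0.86 to 47.3% ± 0.525, SPDEF from 10.7% ± 1.12 to 14.1% ± 0.277 and ELF3 from 1.83% ± 0.224 to 3.5% ± 0.0946 (SD, n = 2 each). So the members' joint share stayed level while EHF took less of it and SPDEF and ELF3 took more. These shares were not tested. The exonic length joins all annotated isoforms, among them long ones of ELF3 and ELK4. Which isoforms were used was not measured, and the longest need not be the one used. With the length of the longest transcript EHF was at 55.3% and 49.1% and SPDEF at 8.05% and 10.6%, still first and second.

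**Figure D3:**
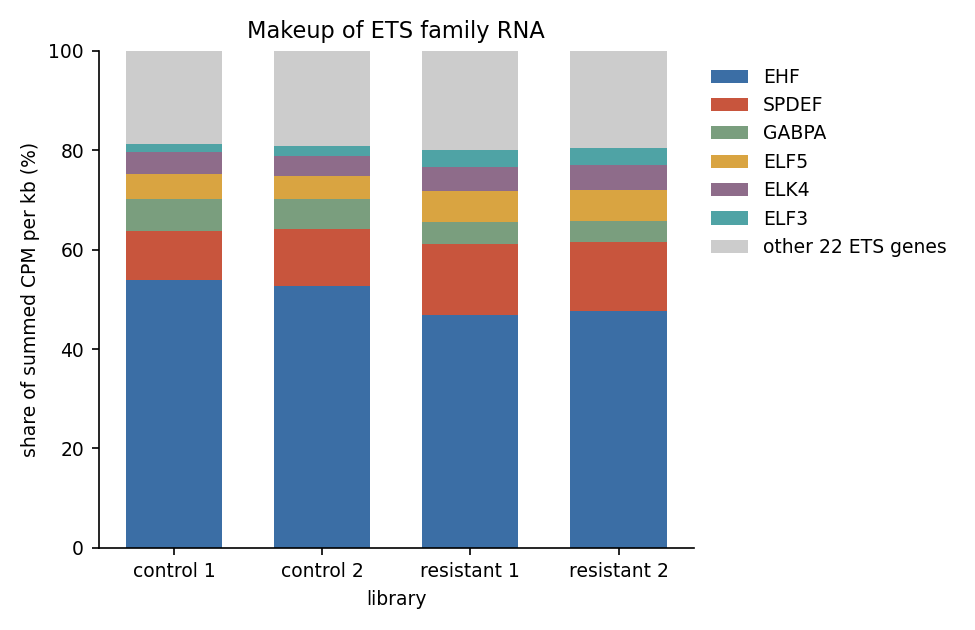
Stacked bars, 1 per library, of the share of 6 ETS genes and the other 22 in the summed CPM per kilobase of all 28, in percent. EHF fills the largest part of every bar, at 53.3% in control and 47.3% in resistant cells on average, and SPDEF is second.

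The other 19 human ETS genes moved in both directions. Of these, 15 could be tested, 9 were called higher, 3 lower and 3 neither, beside 33% higher and 31.7% lower over all genes tested and 42.3% higher over the protein-coding ones. Their median log2 fold change was 0.35. The rises were ETV7 (1.35), ELF4 (0.98), ELK3 (0.95), ETV3 (0.85), ETS1 (0.72), ELF5 (0.70), ELF1 (0.49), ELF2 (0.35) and ERF (0.22). ETV7 was low, with 12 and 14 counts in control and 65 and 50 counts in resistant cells. ERF, a repressor of the family, turned to -0.05 with length and GC offsets, so its direction rests on the scaling. Its call was also lost with DESeq2 (adjusted p = 0.207) and in edgeR with a filter of 1 CPM in 2 libraries (adjusted p = 0.0847). When single libraries were left out the ERF log2 fold change ran from 0.172 to 0.285, and the call did not hold in each of those fits. ETS1 was at 0.587 to 1.09 CPM over the 4 libraries, and its call was lost with DESeq2 (adjusted p = 0.213), without control replicate 1 (adjusted p = 0.101) and without resistant replicate 2 (adjusted p = 0.075). The falls were SPIC (-2.91), ETV2 (-0.36) and GABPA (-0.22). ETV2 was not called with total counts as library sizes (-0.17, adjusted p = 0.261), with DESeq2 (adjusted p = 0.183) or with no count filter (adjusted p = 0.199), nor without control replicate 1 (adjusted p = 0.0947) or resistant replicate 2 (adjusted p = 0.164).

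ELF5, an epithelial factor that sits 107.3 kb from EHF on chromosome 11, was at 45.3 and 41.0 CPM in control and 70.2 and 69.8 CPM in resistant cells (SE 0.05, adjusted p = 1.65e-07 in edgeR). ELK3, a ternary complex factor as ELK4 is, was at 5.33 and 6.09 CPM in control and 10.6 and 11.6 CPM in resistant cells (SE 0.0956, adjusted p = 3.47e-06 in edgeR). ELK1, the other of that trio, was not called (log2 fold change 0.06, adjusted p = 0.381). GABPA, which pairs with GABPB proteins at promoters of housekeeping genes, was at 70.0 and 62.4 CPM in control and 57.3 and 56.1 CPM in resistant cells (SE 0.0533, adjusted p = 0.00327 in edgeR). Its fall was -0.03 with total counts as library sizes (adjusted p = 0.608) and -0.04 with length and GC offsets (adjusted p = 0.342). ATP5PF shares 413 exonic bases with GABPA on the opposite strand and fell from 205.0 and 202.0 to 83.4 and 83.8 CPM (log2 fold change -1.28, adjusted p = 1.81e-10 in edgeR).

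SPIC, a factor of macrophages, had a mean under 1 CPM in both groups. It was at 0.839 and 0.57 CPM in control and 0.0415 and 0.145 CPM in resistant cells (SE 0.507, adjusted p = 3.34e-04 in edgeR), and its log2 fold change ran from -3.94 without resistant replicate 2 to -2.23 without resistant replicate 1. The summed leukocyte markers were 2.64 to 2.73 CPM in control and 1.49 to 2.15 CPM in resistant cells, with 6 of 8 under 1 CPM in every library. FLI1 and ETV3L had no count in any library, and SPI1 and SPIB were too low to test. FLI1 lies 99.0 kb from ETS1 on chromosome 11.

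**Figure D4:**
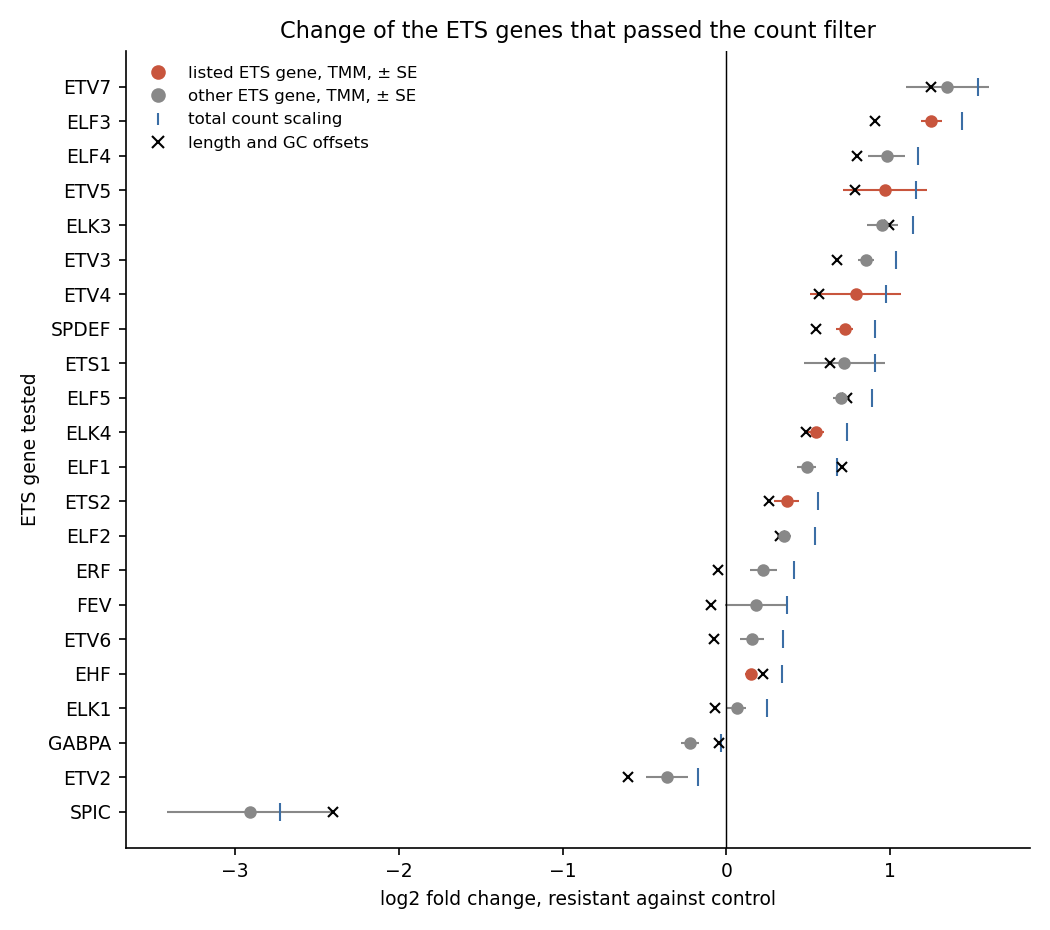
Log2 fold change, resistant against control, of the 22 ETS genes tested (points with SE bars, members in red), with the values under total count scaling (blue ticks) and length and GC offsets (crosses). All 7 members lie above 0 under each of the 3, while SPIC, ETV2 and GABPA lie below it under each. FEV, ETV6, ELK1 and ERF lie below 0 with length and GC offsets only.

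Of 17 partners and regulators of ETS factors, all could be tested, 14 were called higher, 1 lower and 2 neither, beside 33% higher and 31.7% lower over all genes tested and 42.3% higher over the protein-coding ones. The median log2 fold change was 0.47. With length and GC offsets the counts were 10 higher, beside 29.3% over all genes, and 2 lower, and the median was 0.14. TRIB2 and TRIB1 are pseudokinases that guide COP1 to its targets. They went from 7.59 and 6.63 to 32.2 and 31.0 CPM (TRIB2, log2 fold change 2.16 with SE 0.0762, adjusted p = 4.79e-10 in edgeR) and from 16.2 and 13.6 to 49.9 and 50.8 CPM (TRIB1, log2 fold change 1.76 with SE 0.0728, adjusted p = 1.63e-09 in edgeR). COP1, the ubiquitin ligase that marks PEA3 factors for degradation, was the one called lower, at 48.2 and 45.6 CPM in control and 35.4 and 36.6 CPM in resistant cells (log2 fold change -0.38 with SE 0.052, adjusted p = 4.87e-05 in edgeR). MRTFA, a coactivator of SRF, rose by a log2 fold change of 0.87 (with SE 0.0636), and TRIM25, a ubiquitin ligase that acts on ERG, by 0.72 (SE 0.0424). SPOP, the ligase adaptor known to degrade ERG, rose by 0.30 (SE 0.0478, adjusted p = 1.85e-04 in edgeR). CIC, the repressor of PEA3 genes, was called higher at 0.52 (SE 0.0733, adjusted p = 6.35e-05 in edgeR) but turned to -0.11 with length and GC offsets (adjusted p = 0.25).

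EGR1, SPRY4 and DUSP5 rose and PHLDA1 fell among transcripts that ERK signalling is known to drive or that feed back on it. Of 16 such genes, 14 could be tested, 9 were called higher, 3 lower and 2 neither, with a median log2 fold change of 0.91. Over all genes tested 33% were called higher and 31.7% lower, and over the protein-coding ones 42.3% higher. EGR1, an immediate early gene and a known target of ELK factors with SRF, had 1 and 10 counts in control and 220 and 190 counts in resistant cells. Its resistant values of 4.56 and 4.58 CPM stood far above both control values, and the log2 fold change was 4.41 (SE 0.33, adjusted p = 2.54e-07 in edgeR). It was 6.66 without control replicate 2 and 3.67 without control replicate 1. SPRY4, a feedback inhibitor, went from 8 and 3 counts to 89 and 85 counts (log2 fold change 3.17 with SE 0.338, adjusted p = 5.76e-06 in edgeR), with 2.52 without control replicate 2 and 4.14 without control replicate 1. DUSP5, a phosphatase of ERK, rose from 2.98 and 2.5 to 14.0 and 14.2 CPM (log2 fold change 2.37 with SE 0.101, adjusted p = 2.07e-09 in edgeR). PHLDA1 went the other way, from 6.96 and 6.99 to 1.22 and 1.47 CPM (log2 fold change -2.38 with SE 0.142, adjusted p = 3.76e-08 in edgeR).

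Of 19 genes linked to ERG or PEA3 activity in cancer, 12 could be tested, 2 were called higher, 7 lower and 3 neither, beside 33% higher and 31.7% lower over all genes tested. Their median log2 fold change was -0.71. PLA1A and CRISP3, which are high in tumours with ERG fusions, fell by 2.36 (SE 0.296) and 1.55 (SE 0.143) on the log2 scale. PLA1A was low, with 29 and 43 counts in control (1.22 and 1.53 CPM) and 15 and 9 counts in resistant cells (0.311 and 0.217 CPM). CRISP3 was at 4.78 and 5.38 CPM in control and 1.74 and 1.74 CPM in resistant cells. MMP13, a collagenase that PEA3 factors can activate, fell by 1.72 on the log2 scale (SE 0.202), from 2.77 and 2.42 to 0.684 and 0.893 CPM. SOX9, a developmental factor downstream of ERG in prostate cells, rose by 1.45 (SE 0.104), from 6.96 and 5.17 to 16.5 and 16.4 CPM. For these 4 genes the edgeR adjusted p lay between 1.71e-07 and 2.37e-05. TDRD1, also on this list, was not called (log2 fold change -0.12, adjusted p = 0.506 in edgeR).

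SPDEF is known to drive a secretory network in goblet and gland cells. Of 15 such genes, 9 could be tested, 3 were called higher, 3 lower and 3 neither, which is near the 33% higher and 31.7% lower over all genes tested. The median log2 fold change was 0.18. With length and GC offsets it was 4 higher and 5 lower with a median of -0.40. Over all 20122 genes in that fit 5898 (29.3%) were higher and 6904 lower. With total counts as library sizes it was 5 higher and 3 lower, beside 8615 (42.4%) higher and 4761 lower of 20325 genes. ST6GALNAC1, a sialyltransferase of mucin glycans, fell from 55.9 and 56.8 to 1.99 and 1.74 CPM, 30.1-fold (log2 fold change -4.91 with SE 0.0802, adjusted p = 2.97e-12 in edgeR). AGR2, a disulfide isomerase needed for mucin folding, fell from 19.2 and 18.3 to 5.79 and 6.3 CPM (log2 fold change -1.63 with SE 0.0755, adjusted p = 4.14e-09 in edgeR). SYTL2 and RAB27A, which tether secretory vesicles, rose. SYTL2 went from 154.5 and 148.3 to 376.6 and 374.1 CPM (log2 fold change 1.31 with SE 0.0385, adjusted p = 1.21e-10 in edgeR), and RAB27A from 26.3 and 23.6 to 49.6 and 54.8 CPM (log2 fold change 1.07 with SE 0.0686, adjusted p = 6.85e-08 in edgeR). AGR3 and CLCA1 had no count in any library.

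Genes that supply the 5′ part of ETS fusions showed no common direction. All 11 could be tested, and 5 were called higher, 4 lower and 2 neither, near the 33% higher and 31.7% lower over all genes tested and the 42.3% higher over the protein-coding ones. The median log2 fold change was 0.07. The counts were 7 higher, beside 42.4% over all genes, and 1 lower with total counts as library sizes. Beside TMPRSS2, CANT1 (log2 fold change 0.79 with SE 0.0473) and the stress gene NDRG1 (0.66, SE 0.0467) rose, and HERPUD1, a gene of the endoplasmic reticulum stress response, fell by 0.36 on the log2 scale (SE 0.0385). The edgeR adjusted p of these 3 lay between 3.94e-08 and 5.93e-06.

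The regions joined by the known ETV1 rearrangement were read through 10 genes, those beside ETV1 on chromosome 7 and those around MIPOL1 and FOXA1 on chromosome 14. Of these 9 could be tested, 2 were called higher, 5 lower and 2 neither, beside 33% higher and 31.7% lower over all genes tested. The median log2 fold change was -0.33. With total counts as library sizes 4 were higher, beside 42.4% over all genes, and 4 lower. MIPOL1, in whose region ETV1 is known to lie in LNCaP, was at 69.7 and 67.5 CPM in control and 41.8 and 44.0 CPM in resistant cells (log2 fold change -0.68 with SE 0.0453, adjusted p = 9.58e-08 in edgeR). TTC6 fell from 145.4 and 138.2 to 76.7 and 78.3 CPM (log2 fold change -0.87 with SE 0.0441, adjusted p = 8.95e-09 in edgeR). FOXA1, the pioneer factor of luminal cells in the same region, rose from 233.5 and 219.0 to 282.3 and 283.9 CPM (log2 fold change 0.32 with SE 0.0407, adjusted p = 2.41e-05 in edgeR). SSTR1, a somatostatin receptor gene, rose from 8 and 6 counts to 129 and 95 counts (log2 fold change 3.19 with SE 0.276, adjusted p = 9.39e-07 in edgeR), and SLC25A21 fell by 0.80 on the log2 scale (SE 0.144, adjusted p = 4.21e-04 in edgeR). AGMO, on the chromosome 7 side, fell by 0.76 on the log2 scale (SE 0.236, adjusted p = 0.0141 in edgeR), a call lost with DESeq2 (adjusted p = 0.156) and with length and GC offsets (adjusted p = 0.0648). All 5 genes of the chromosome 14 side had counts in every library, while ETV1 itself had no more than 2.

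**Figure D5:**
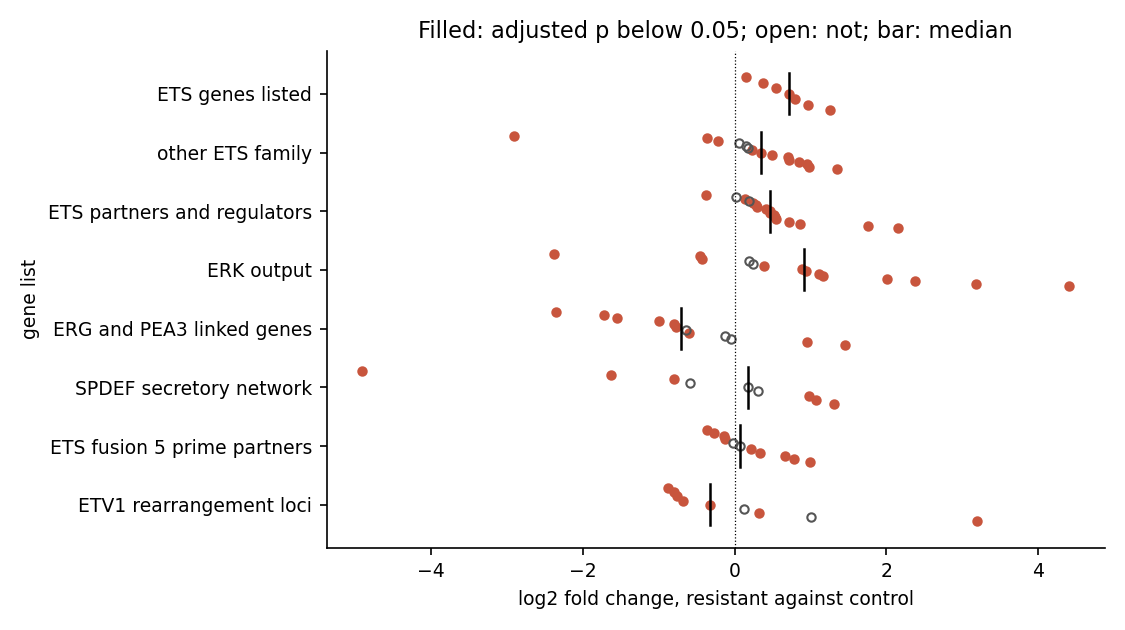
Log2 fold change, resistant against control, of every tested gene in the members, the other ETS genes and the linked lists, 1 point per gene (filled where called, open where not) with a line at each list's median. Medians run from -0.71 for genes linked to ERG and PEA3 factors to 0.91 for ERK output, beside -0.02 for all genes tested.

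The genes whose levels ran most like those of ELF3, by Euclidean distance of log2 CPM over the 4 libraries, were PPP1R3B at 0.144, PTPRU at 0.162 and SEZ6L2 at 0.188. PPP1R3B was at 24.1 and 25.6 CPM in control and 61.1 and 64.0 CPM in resistant cells. These 3 were picked for this likeness among the protein-coding genes tested, so their rise is a description.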

How the data were processed

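RNA-seq of C4-2 cells gave 2 control and 2 enzalutamide-resistant libraries, grouped by their labels. The authors deposited raw read counts per gene, made with STAR 2.5.2b and HTSeq on GRCh38 (hg38), as listed per the submitters' processing notes. No source used here gives HTSeq's version, mode and strand setting or the annotation it used. The 5 rows that are not genes held 55.4% to 74.4% of records and were left out. Symbols, positions and exonic lengths came from GENCODE 29 (GRCh38), which matched 56753 of 60483 identifiers, and promoters from RefSeq (GRCh38.p14).

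Counts were fitted with edgeR 4.0.16 in R 4.3.3 (TMM, filterByExpr with a minimum count of 10, quasi-likelihood F test, group as the only term, 2 residual degrees of freedom), with p-values adjusted over 20325 genes and called below 0.05. SE is the log2 fold change divided by the square root of F. CPM used TMM-scaled library sizes. The fit was tested on simulated data. Counts within each pair differed by more than sampling noise (chi-square per degree of freedom 5.67 and 2.38), which may be technical. Each library was counted as 1 replicate. Alternatives were total count scaling, DESeq2 size factors, DESeq2 1.42.0, other count filters, splines of length and GC content (5 degrees of freedom each, 20122 genes), a replicate block and leaving out each library. Intervals are exact Poisson at 95%.

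The members and lists were chosen with earlier results of these data known. Named were all members, every other ETS gene called, up to 4 called genes with the largest change per list, TMPRSS2, SLC45A3, FOXA1, MIPOL1, CIC, COP1 and SPOP, and the 3 genes most like ELF3. ELK1 and TDRD1 were named beside these after their values were seen, as were the genes sharing exonic bases and the ETS genes too low to test. Some genes of the luminal marker list, and its sum, are not reported here.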

Additional observations from a re-analysis of the deposited data

How the results depend on the processing

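The 7 tested members kept their direction in each alternative that gave a value, and SPDEF, ELF3, ELK4 and ETS2 kept their call in all of them. ETV4 did not pass with DESeq2 (log2 fold change 0.79), with length and GC offsets (0.56) or with those and the replicate block (0.53), ran from 0.54 to 0.99 when single libraries were left out, and is not among the genes with 1 CPM in 2 libraries. ETV5 did not pass with DESeq2 (0.99), and EHF ran from 0.11 to 0.19 when single libraries were left out. Among other ETS genes the number called lower went from 3 to 1 with total count scaling and to 1 with no count filter. Total count scaling also gave 5 higher in the SPDEF network, 1 lower among fusion partners and 4 higher among ETV1 loci. Length and GC offsets gave 2 lower among partners and regulators and 5 lower in the SPDEF network, each the same with the replicate block. Fusion partners had 2 lower with no count filter and 2 to 4 when single libraries were left out, and ETV1 loci had 3 lower with DESeq2 and 3 to 5 when single libraries were left out. Length and GC offsets alone, and with the replicate block, turned the sign of FEV (-0.093 and -0.093), ETV6 (-0.074 and -0.077), ELK1 (-0.071 and -0.070), ERF (-0.054 and -0.056) and CIC (-0.111 and -0.112). They also turned ATXN1 from called higher (0.135) to called lower (-0.236 and -0.236), MUC5AC from 0.180, not called, to called lower (-0.399 and -0.397), and EPHA2, not called in either, from 0.242 to -0.016 and -0.008. The last 3 were named after their values were seen, and the cause was not tested in any of these cases. The share of calls that were higher was 51% with TMM, 64.4% with total count scaling and 46.1% with length and GC offsets. Over all genes, total count scaling called 8615 of 20325 higher and 4761 lower. Length and GC offsets called 5898 of 20122 higher and 6904 lower. Deviations of same-numbered libraries from their group means had a correlation of -0.215 over 10425 genes. With 2 libraries per group its sign depends on the numbering, so it cannot decide whether replicate numbers pair the libraries. The fit with the replicate block called 6647 genes higher and 6444 lower, with 7 members higher. A crossed pairing, added after seeing the data, called 6988 higher and 6753 lower, with 7 members higher. With 14 to 57 counts per library for ETV4 and 12 to 54 for ETV5, depth limits both values, and it allowed no test of ERG or ETV1.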

Other observations

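Among the lists that stand for other cell types, 6 genes were called, 3 higher and 3 lower in resistant libraries (edgeR adjusted p under 0.05). All were named after their values were seen. The genes that could be tested were 4 endothelial, 3 fibroblast, 2 neural stem and 2 leukocyte markers. Over all genes tested 33% were called higher and 31.7% lower, so these calls do not stand out from the background. Of the endothelial list, KDR, the receptor for VEGF, had 0 and 1 counts in control and 24 and 13 counts in resistant libraries (adjusted p = 8.78e-04). ESAM, a junction protein, also rose, from 0.252 and 0.214 to 0.519 and 0.507 CPM (adjusted p = 0.0205), while VWF, the von Willebrand factor, fell from 4.57 and 4.17 to 3.01 and 2.7 CPM (adjusted p = 0.00205). In the fibroblast list the collagen genes went opposite ways: COL1A1 fell from 6.29 and 7.84 to 5.39 and 5.24 CPM (adjusted p = 0.00849) and COL3A1 rose from 1.05 and 1.43 to 2.07 and 1.74 CPM (adjusted p = 0.0235). NES, which encodes the intermediate filament nestin, fell from 2.69 and 3.53 to 1.39 and 1.38 CPM (adjusted p = 1.45e-04). Of the leukocyte list 2 genes could be tested and neither passed, CD68 (adjusted p = 0.0819) and CSF1R (adjusted p = 0.0852).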
